A study of Mus musculus with 12 samples.

Results

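The genes described here code for the enzymes and carriers of glycolysis, the pathway that splits glucose to pyruvate in the cytosol, and for the oxygen-sensing machinery and targets of the hypoxia response. Members were taken from a list of 40 genes, each read from the probe set that carried its symbol alone and, where a gene had several, from the brightest of them on average across the 12 arrays. Of the 40 genes, 36 were measured among the 19938 named genes of the array. Pfkfb1, Gpi1 and Eno1 had no probe set under their symbol, and the 25 probe sets of Gapdh were all shared with other symbols, so these 4 were not analysed here.

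Expression was read on 12 Affymetrix Mouse Gene 1.0 ST arrays from microglia, the macrophages that live in the brain. The cells came from C57BL/6J pups on postnatal day 7, were drawn with magnetic beads against the surface protein CD11b and were kept in serum-containing medium for 3 days. They were then treated for 6 h in 4 ways. The vehicle group received DMSO at 0.4% and ethanol at 0.001%. The Aβ42 group received 10 µM of Aβ42 oligomers, a form of the amyloid peptide that aggregates in Alzheimer's disease, with ethanol at 0.001%. The AE1-329 group received 100 nM of AE1-329, which activates EP4, a receptor for prostaglandin E2, with DMSO at 0.4%. The combined group received both agents at the same doses. How much DMSO or ethanol came with an agent itself is not given in the sources used here. Each group held 3 arrays, 1 for each of 3 litters, and no group was exposed to altered oxygen per the labels, so hypoxia here names the known regulation of the genes and no condition of the study. The cells were neonatal and cultured, and the number of pups behind a litter's sample is not given in the sources used here.

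In cells with enough oxygen, prolyl hydroxylases of the Egln family mark the alpha subunit of the transcription factor HIF-1 for destruction. When the hydroxylases slow down, HIF-1 alpha, the product of Hif1a, accumulates, binds short DNA elements with the core letters ACGTG or GCGTG and raises the transcription of glucose carriers, glycolytic enzymes, angiogenic factors and mitophagy receptors. In macrophages and microglia Hif1a is also raised by inflammatory signals through NF-kB, and activated cells are known to lean on glycolysis. EP4 couples to the stimulatory G protein and raises cyclic AMP, whose factor CREB binds elements that begin with TGACG. Transcript levels say nothing direct about HIF-1 alpha protein or about the flux through glycolysis, neither of which was measured.

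All levels below are the deposited log2 values. A change is the mean of one group minus that of another on this scale, given ± its standard error (SE) from limma, so that 1 unit is a 2-fold difference. A gene was called higher or lower, and is said to have risen or fallen, when its limma p, adjusted by Benjamini-Hochberg over all 19938 genes of the comparison, was under 0.05. The interaction is the change with AE1-329 in the presence of Aβ42 minus its change without Aβ42. The comparisons share arrays. The arrays with Aβ42 alone, for example, are the treated arm of one comparison and the reference of another, and values are therefore set side by side without any test of their resemblance.

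As a rough check of cell type, since probe sets differ in brightness at equal RNA, all 11 measured microglial markers of 12 listed lay above the median level of all genes and 7 lay in the top decile. Above that median lay 3 of 10 astrocyte, 4 of 9 oligodendrocyte, 1 of 10 neuron, 3 of 10 endothelial and mural and 0 of 2 erythroid markers. The summed level of the microglial markers was 15.32 to 15.35 log2 units on the vehicle arrays, 15.21 to 15.25 with Aβ42 alone, 15.30 to 15.31 with AE1-329 alone and 15.19 to 15.21 with both, so it was lower on all arrays with Aβ42, and its part in the members' changes was not tested. Medians of whole arrays lay between 6.97 and 7.05 log2 units. In bulk RNA of this kind, fewer cells of a type and less RNA per cell cannot be told apart.

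The array of vehicle replicate 1 stood apart in many of these genes. It lay at least 0.25 log2 units below both other vehicle arrays in 14 of 36 members (38.9%), against 7.70% of all genes, a gap that was chosen after its values were seen. Those 14 were Slc2a1, Slc2a3, Slc16a3, Hk2, Hk3, Pfkl, Pfkm, Pfkfb4, Aldoa, Aldoc, Tpi1, Pgk1, Eno2 and Pkm, nearly all of them carriers and enzymes of glycolysis. Egln3, Vegfa and Bnip3 lay as far above both other vehicle arrays on the same array (8.33% of members, against 4.9% of all genes). No other array had more than 2 members on one side of that gap. The muscle-type pyruvate kinase gene Pkm showed the widest gap, at 10.91 on vehicle replicate 1 against 11.67 and 11.60 on the other vehicle arrays, while its 9 values in the treated groups ran from 11.54 to 11.79. The median SD over members was 0.165 log2 units among vehicle arrays and 0.053 to 0.065 in the treated groups. Over all genes it was 0.109 among vehicle arrays and 0.063 to 0.066 in the treated groups, so the vehicle arrays spread more there too. The counts of called members in each comparison are therefore also given without that array, and the reason for its values was not tested.

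**Figure D1:**
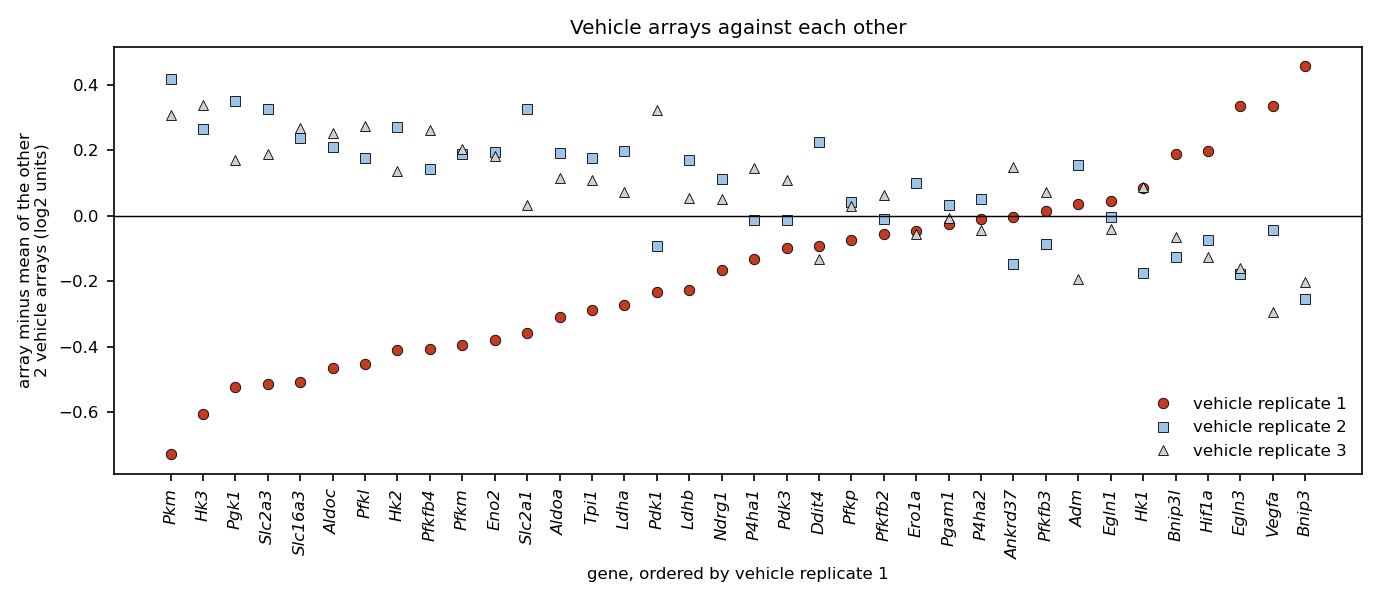
Each vehicle array minus the mean of the other 2 vehicle arrays (vertical axis, log2 units) for the 36 measured genes (horizontal axis, ordered by vehicle replicate 1; circles, squares and triangles are replicates 1, 2 and 3). Vehicle replicate 1 runs from -0.73 for Pkm to 0.46 for Bnip3, while replicates 2 and 3 stay between -0.29 and 0.42.

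The promoters of the genes whose values carry the results were read from RefSeq (GRCm38.p6), which held 33 of the 36 measured genes, with Slc2a3, Bnip3l and Ndrg1 missing. The 250 bases before each listed start were searched on both strands for the HIF-1 cores ACGTG and GCGTG and for TGACG, the left part of the cyclic AMP response element TGACGTCA. The palindrome CACGTG holds ACGTG on both strands and counts as 2 overlapping matches, and TGACGTG holds both TGACG and ACGTG. Windows are shown for Hif1a, Egln1, Pfkfb3 and Bnip3, which passed the interaction test, for Slc2a1 and Adm, which rose with Aβ42, and for Slc16a3, which rose with AE1-329. Each sequence runs from 5′ to 3′ toward the start of the gene and ends on the base just before it. Capitals mark the 3 motifs on either strand, so that CACGT and CACGC are the cores read on the other strand, and of several listed starts the one with most matches is shown.
Hif1a, chr12:73907617-73907866, plus strand: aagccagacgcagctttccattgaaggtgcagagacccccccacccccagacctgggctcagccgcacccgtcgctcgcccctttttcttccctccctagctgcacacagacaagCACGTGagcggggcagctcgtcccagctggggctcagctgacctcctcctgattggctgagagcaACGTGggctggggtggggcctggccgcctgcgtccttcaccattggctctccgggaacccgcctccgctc
Egln1, chr8:124949255-124949504, minus strand: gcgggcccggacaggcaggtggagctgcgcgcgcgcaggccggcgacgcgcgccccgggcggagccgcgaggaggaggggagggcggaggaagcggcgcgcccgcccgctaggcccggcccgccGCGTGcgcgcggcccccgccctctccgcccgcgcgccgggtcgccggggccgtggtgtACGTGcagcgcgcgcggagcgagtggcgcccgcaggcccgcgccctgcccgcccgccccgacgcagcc
Pfkfb3, chr2:11502091-11502340, minus strand: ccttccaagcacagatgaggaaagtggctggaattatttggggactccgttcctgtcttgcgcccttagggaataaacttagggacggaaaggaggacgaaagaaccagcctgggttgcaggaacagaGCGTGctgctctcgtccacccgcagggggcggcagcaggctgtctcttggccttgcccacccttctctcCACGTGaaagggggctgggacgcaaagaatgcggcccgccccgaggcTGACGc
Bnip3, chr7:138909507-138909756, minus strand: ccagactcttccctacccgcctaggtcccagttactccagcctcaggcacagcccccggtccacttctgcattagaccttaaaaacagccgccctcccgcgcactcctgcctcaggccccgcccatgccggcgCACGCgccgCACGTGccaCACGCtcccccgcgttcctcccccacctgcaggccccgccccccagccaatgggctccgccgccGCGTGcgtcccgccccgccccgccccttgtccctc
Slc2a1, chr4:119108495-119108744, plus strand: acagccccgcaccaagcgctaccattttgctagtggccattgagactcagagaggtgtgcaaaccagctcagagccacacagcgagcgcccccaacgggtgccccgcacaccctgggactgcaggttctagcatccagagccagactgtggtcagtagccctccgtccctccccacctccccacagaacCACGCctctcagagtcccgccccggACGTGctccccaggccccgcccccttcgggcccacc
Adm, chr7:110627407-110627656, plus strand: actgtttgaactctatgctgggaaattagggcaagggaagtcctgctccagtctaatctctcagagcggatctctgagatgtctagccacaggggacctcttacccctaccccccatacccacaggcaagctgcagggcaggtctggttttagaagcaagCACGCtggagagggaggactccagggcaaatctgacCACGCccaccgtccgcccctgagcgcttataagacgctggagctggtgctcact
Slc16a3, chr11:120948817-120949066, plus strand: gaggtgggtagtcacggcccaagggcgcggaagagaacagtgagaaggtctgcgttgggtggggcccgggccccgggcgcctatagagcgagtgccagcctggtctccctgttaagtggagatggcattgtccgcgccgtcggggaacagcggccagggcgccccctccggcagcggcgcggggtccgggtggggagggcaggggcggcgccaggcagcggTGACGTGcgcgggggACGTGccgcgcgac

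Either HIF-1 core was found in 39 of the 47 promoters of the members (83.0%), covering 31 of 33 genes, against 38.6% of all 32851 promoters in the table. ACGTG was found in 57.4% against 16.6%, GCGTG in 55.3% against 28.2%, TGACG in 23.4% against 17.8%, and the full TGACGTCA in 2.13% against 1.55%. Members' promoters were also richer in G and C (median 61.6% against 52.4%) and in CG pairs (median 14 against 6), and the background was not matched for this. Many members were listed as known hypoxia targets, so a surplus of cores is in part built into the list. Windows were counted per listed start, and those of the same gene can overlap, as for Aldoa and Pfkm. The shares therefore describe the windows only. The Bnip3 window shown above held 5 core matches between 117 and 35 bases before the start, and the Hif1a window held a palindrome and a further ACGTG 70 bases before the start. The Adm window held GCGTG alone, at 90 and 54 bases. For Pfkfb3 the start shown is the second of the listed ones, further downstream in the gene. The windows of Tpi1 and Eno2 held neither core. The Slc16a3 window held a TGACGTG in which the TGACG match lay 29 bases before the start. Of 2 listed Vegfa starts, the window of the first held none of the motifs and that of the other, which appears to lie within the gene, held matches and is not printed. Vegfa counts among the 31 genes with a core only through that second window. A match is no evidence of binding, and most members whose transcripts passed no test, such as Ldha and Pgk1, held cores as well.

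With Aβ42 alone 8 of the 36 members rose (22.2%) and 11 fell (30.6%), where over all genes 10.7% rose and 14.8% fell. Calls were commoner at higher levels, and all members but Adm, P4ha2 and Ankrd37 lay above the median level of all genes. Among genes above that median, tested alone, 19.6% rose and 27.8% fell, nearer to the members' shares. The median change of the members was 0.05, beside 0.02 for all genes. The 8 that rose were Hif1a, Slc2a1, Pfkl, Pfkp, Eno2, Adm, P4ha2 and Ero1a, and the 11 that fell were Egln3, Slc2a3, Hk2, Pfkm, Pfkfb2, Pfkfb3, Ldhb, Pdk1, Pdk3, Bnip3 and Bnip3l. Carriers, phosphofructokinase subunits and hypoxia targets stood on both sides. After a further quantile normalization of the deposited values the split was 10 higher and 8 lower (all genes 11.5% and 14.6%). Leaving out vehicle replicate 1 gave 8 higher and 12 lower (all genes 11.5% and 17.1%), and the members' median change was -0.08.

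With AE1-329 alone 4 members rose (11.1%) and 3 fell (8.33%), where over all genes 4.71% rose and 5.45% fell. Genes above the median level, tested alone, rose in 10.8% and fell in 12.2%. The median change of the members was 0.00, beside -0.01 for all genes. Slc16a3, Pfkfb4, Pdk3 and Vegfa rose, and Egln1, Pfkp and Pfkfb3 fell. With vehicle replicate 1 left out the members numbered 4 higher and 7 lower (all genes 4.89% and 6.87%), with Slc2a3, Hk2, Hk3 and Pdk1 added to the lower side.

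When AE1-329 was added to Aβ42 and compared with Aβ42 alone, 8 members rose (22.2%) and 1 fell (2.78%), where over all genes 5.99% rose and 5.04% fell. Genes above the median level, tested alone, rose in 13.4% and fell in 10.3%. The median change of the members was 0.11, beside -0.02 for all genes. Hif1a, Egln3, Slc16a3, Pfkl, Pfkfb3, Vegfa, Bnip3 and Ero1a rose, and the platelet-type phosphofructokinase gene Pfkp fell. Without vehicle replicate 1, which enters this comparison only through the shared estimate of the spread, 15 members were called higher and 2 lower (all genes 8.47% and 7.05%). The changes themselves are the same there, and Egln1, Pfkfb4, Tpi1, Pgk1, Pkm, Ldha and Pdk3 joined the higher side and Hk3 the lower.

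When Aβ42 was added to AE1-329 and compared with AE1-329 alone, 11 members rose (30.6%) and 6 fell (16.7%), where over all genes 9.77% rose and 12.2% fell. Genes above the median level, tested alone, rose in 18.7% and fell in 22.9%. The median change of the members was 0.09, beside 0.01 for all genes. Called higher with Aβ42 in both backgrounds were 7 members (19.4%; 7.28% of all genes), namely Hif1a, Slc2a1, Pfkl, Eno2, Adm, P4ha2 and Ero1a. Called lower in both were 6 (16.7%; 9.83% of all genes), namely Slc2a3, Pfkm, Pfkfb2, Ldhb, Pdk3 and Bnip3l. The same 7 and 6 were called in both backgrounds without vehicle replicate 1 (8.47% and 12.1% of all genes). When vehicle replicate 1 was left out the count was 14 higher and 6 lower (all genes 12.1% and 15.0%).

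The interaction was called positive for 4 members (11.1%), Hif1a, Egln1, Pfkfb3 and Bnip3, where 1.03% of all genes had a positive call. It was called negative for 0 members, where 0.918% of all genes had a negative call. For genes above the median level, tested alone, the positive and negative shares were 2.89% and 2.13%. At an unadjusted limma p under 0.05 the interaction was positive in 12 members and negative in 0, against 6.04% and 4.38% of all genes. The median over members was 0.02, beside -0.00 for all genes. Without vehicle replicate 1 the interaction was called positive in 8 members and negative in 0 (all genes 1.61% and 1.18%), with Hk2, Pfkl, Tpi1 and Ero1a added, and the members' median was 0.14. Across all 5 comparisons 24 members (66.7%) had at least 1 call and 12 had none, where 33.6% of all genes had a call. Hk1 counts among the 12 by its brighter probe set alone. Shares among genes above the median level were not computed for calls in several comparisons. Leaving out vehicle replicate 1 gave calls to 30 members (83.3%; 38.8% of all genes), with Hk3, Aldoa, Tpi1, Pgk1, Pkm and Ldha added, and left 6 with none.

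**Figure D2:**
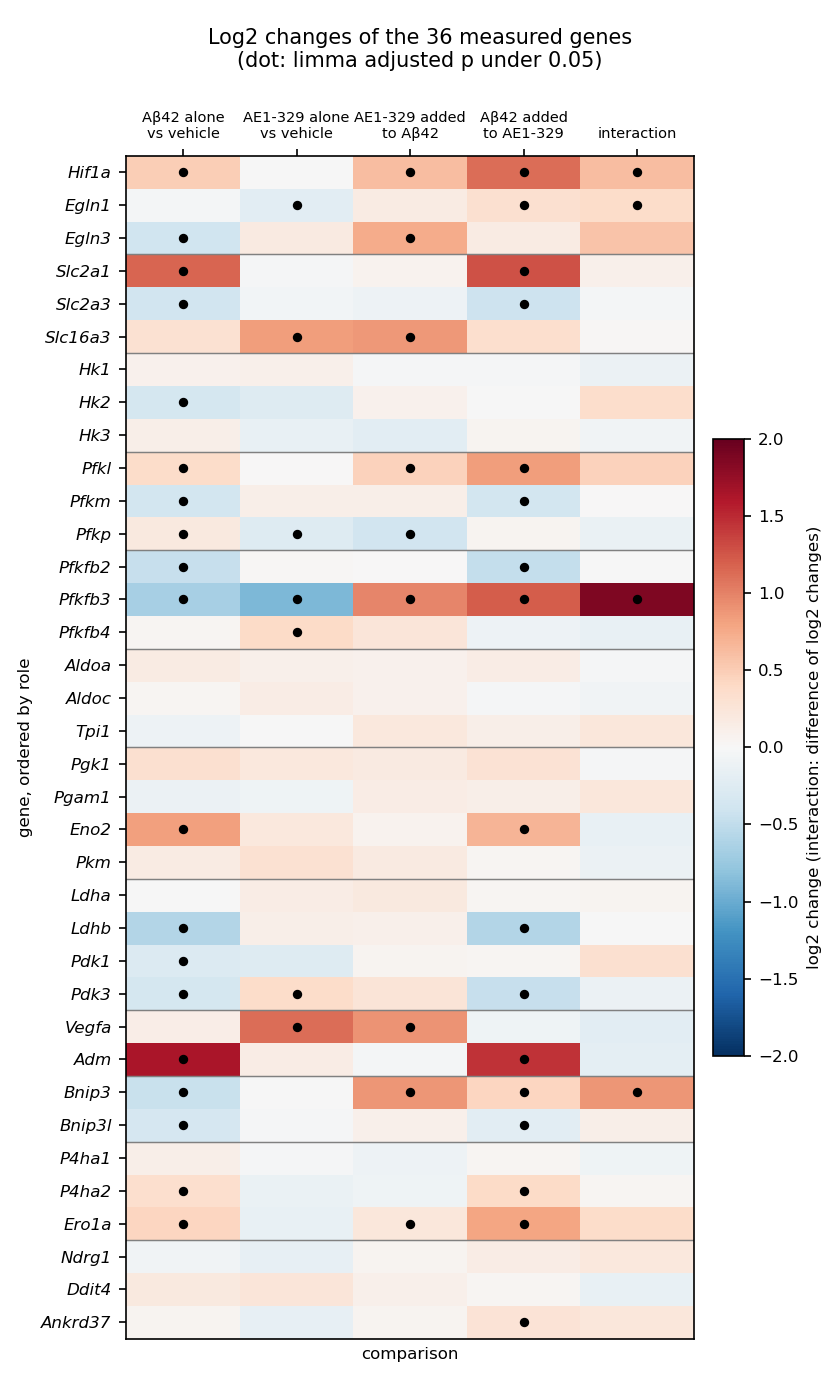
Log2 change (colour, red higher and blue lower, from -2 to 2) of the 36 measured genes (rows, grouped by role) in the 5 comparisons (columns); a dot marks a limma adjusted p under 0.05. Pfkfb3 has a dot in every column, with blue for each agent alone and red for each agent added to the other.

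Hif1a, the gene of the oxygen-regulated HIF-1 subunit, rose with Aβ42 and rose further when AE1-329 was present as well. It read 11.05, 10.87 and 10.84 on the vehicle arrays, 11.46, 11.43 and 11.36 with Aβ42 alone, 10.92, 10.91 and 10.89 with AE1-329 alone, and 12.06, 11.99 and 12.03 with both. The combined arrays were the highest and did not overlap any other group, and the AE1-329 arrays lay within the range of the vehicle arrays. Aβ42 alone raised it by 0.50 ± 0.06 (1.41-fold, limma adjusted p = 3.54e-05). With AE1-329 alone the change was -0.01 ± 0.06 (limma adjusted p = 0.949). The rise in the combined group was measured against each agent alone. On top of Aβ42, AE1-329 raised it by 0.61 ± 0.06 (1.53-fold, limma adjusted p = 2.76e-05). On top of AE1-329, Aβ42 raised it by 1.12 ± 0.06 (2.17-fold, limma adjusted p = 1.64e-08). The interaction was 0.62 ± 0.09 (limma adjusted p = 0.00202), and the addition of AE1-329 to Aβ42 was followed by a higher value in 3 of 3 litters.

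Egln1 codes for the main hydroxylase that marks HIF-1 alpha for destruction, and its changes were small. It read 8.87, 8.84 and 8.81 with vehicle, 8.76, 8.82 and 8.79 with Aβ42 alone, 8.62, 8.59 and 8.67 with AE1-329 alone, and 8.99, 8.94 and 8.93 with both. The AE1-329 arrays were the lowest group and the combined arrays the highest, without overlap with the others. Egln1 fell by 0.21 with AE1-329 alone (SE 0.05, limma adjusted p = 0.0119), a call lost without AE1-329 replicate 2 (0.0607), and rose by 0.32 ± 0.05 when Aβ42 was added to AE1-329 (limma adjusted p = 0.000213). The interaction was 0.37 ± 0.07 (limma adjusted p = 0.0117). When AE1-329 was added to Aβ42 the change was 0.16 ± 0.05 (limma adjusted p = 0.0513), which passed without vehicle replicate 1 (0.0233).

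Egln3, a related hydroxylase that is itself a well-known HIF-1 target, fell by 0.40 with Aβ42 alone (SE 0.10, limma adjusted p = 0.0104). It rose by 0.75 ± 0.10 when AE1-329 was added (1.68-fold, limma adjusted p = 0.000387). Its means were 8.02 with vehicle, 7.62 with Aβ42, 8.20 with AE1-329 and 8.36 with both (SD 0.19, 0.10, 0.03 and 0.19, n = 3 each). The arrays with Aβ42 alone thus lay below every other array. The interaction, 0.57 ± 0.15, missed the threshold (limma adjusted p = 0.0781) and passed with the litter as a block (limma adjusted p = 0.00571).

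**Figure D3:**
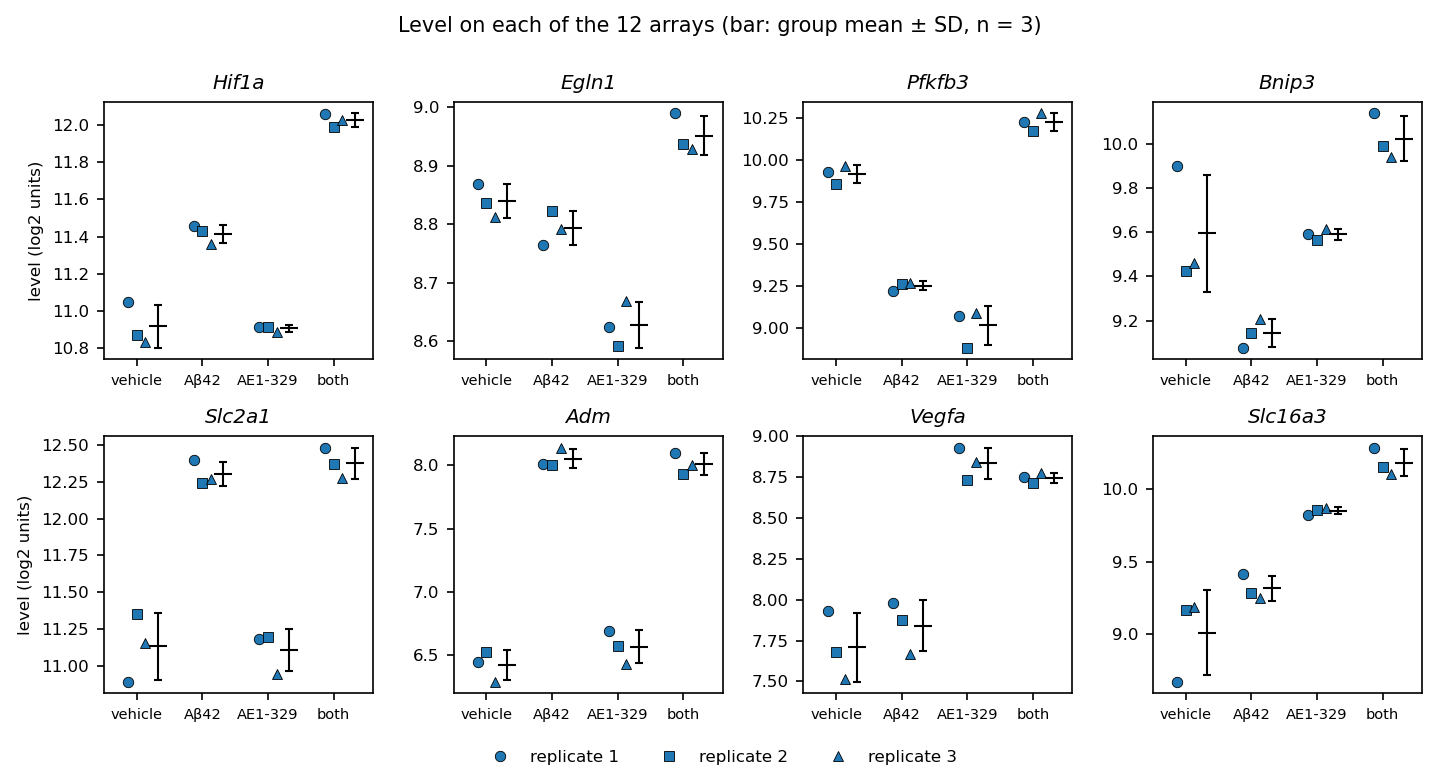
Level of 8 genes on each of the 12 arrays (vertical axes, log2 units, not starting at 0; horizontal axes, the 4 groups; marker shapes are replicates, bars are the group mean ± SD, n = 3). In the upper row (Hif1a, Egln1, Pfkfb3, Bnip3) the combined group lies highest, and in the lower row Slc2a1 and Adm follow Aβ42 while Vegfa and Slc16a3 follow AE1-329.

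Among the carriers, Slc2a1, the ubiquitous glucose carrier GLUT1, followed Aβ42 whether or not AE1-329 was present. It read 10.89, 11.35 and 11.16 with vehicle, 12.40, 12.24 and 12.27 with Aβ42 alone, 11.18, 11.20 and 10.95 with AE1-329 alone, and 12.48, 12.37 and 12.27 with both. The 6 arrays with Aβ42 all lay above the 6 without it. Slc2a1 rose by 1.17 ± 0.11 with Aβ42 alone (2.25-fold, limma adjusted p = 2.49e-06) and by 1.27 ± 0.11 on AE1-329 (2.41-fold, limma adjusted p = 1.29e-06). AE1-329 gave -0.03 ± 0.11 on vehicle and 0.07 ± 0.11 on Aβ42, with limma adjusted p of 0.942 and 0.802. GLUT1 also marks brain endothelium. The summed level of the 10 endothelial and mural markers was 10.35 to 10.53 log2 units with vehicle and 10.44 to 10.57 with Aβ42, ranges that overlap, and its part in the Slc2a1 result was not tested.

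Slc2a3, the high-affinity glucose carrier GLUT3 typical of neurons, went the other way. It fell by 0.38 with Aβ42 alone (SE 0.11, limma adjusted p = 0.0246) and by 0.42 on AE1-329 (SE 0.11, limma adjusted p = 0.0174). Vehicle replicate 1, at 7.88, lay among the arrays with Aβ42 alone (7.80 to 7.90), so those groups overlapped. The calls were lost under 6 and 3 of the 18 alternatives (adjusted p up to 0.0932 and 0.0784). Without vehicle replicate 1 the fall with Aβ42 alone was 0.55 (SE 0.06, limma adjusted p = 5.92e-05). On AE1-329 the same 0.42 then had a limma adjusted p of 0.000221. The summed level of 10 neuron markers was 10.07 to 10.31 with vehicle and 10.05 to 10.26 with Aβ42.

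Slc16a3, the lactate and proton exporter MCT4 of glycolytic cells, followed AE1-329. Its vehicle arrays read 8.67, 9.17 and 9.19, its Aβ42 arrays 9.41, 9.29 and 9.25, its AE1-329 arrays 9.83, 9.86 and 9.88, and its combined arrays 10.29, 10.16 and 10.11. The 6 arrays with AE1-329 all lay above the 6 without it. Slc16a3 rose by 0.84 ± 0.11 with AE1-329 alone (1.79-fold, limma adjusted p = 0.000339) and by 0.87 ± 0.11 on Aβ42 (1.82-fold, limma adjusted p = 0.000236). The changes with Aβ42 were smaller, at 0.31 ± 0.11 alone and 0.33 ± 0.11 on AE1-329 (limma adjusted p = 0.0671 and 0.0533), although in each case the groups did not overlap. Leaving out vehicle replicate 1 gave 0.14 ± 0.06 (limma adjusted p = 0.153) and 0.33 ± 0.06 (limma adjusted p = 0.00111).

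The hexokinases trap glucose in the cell by phosphorylation. By the probe sets used, only Hk2, the inducible isoform, had a call among the 3. It fell by 0.36 with Aβ42 alone (SE 0.10, limma adjusted p = 0.0152), a call lost without vehicle replicate 2 or 3 (limma adjusted p = 0.0592 and 0.0586). Without vehicle replicate 1 Hk2 also fell with AE1-329 alone, by 0.40 (SE 0.06, limma adjusted p = 0.00192), and Hk3, the isoform of myeloid cells, fell by 0.35 (SE 0.06, limma adjusted p = 0.00227). The probe set used for Hk1 showed no call, whereas the dimmer probe set of the same gene read 8.67 to 8.78 with vehicle and 8.38 to 8.46 with Aβ42. That dimmer probe set fell by 0.30 with Aβ42 alone (SE 0.05) and rose by 0.32 ± 0.05 when AE1-329 was added, with limma p adjusted over all probe sets of 0.00128 and 0.00274. The probe set used was chosen by brightness, and which of the 2 better reads Hk1 was not tested. A further 16 probe sets list Hk1 together with the ribosomal protein gene Rpl17.

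Phosphofructokinase 1 commits sugar to glycolysis, and its 3 subunit genes moved apart. Pfkl, the liver-type subunit, rose by 0.37 ± 0.10 with Aβ42 alone (limma adjusted p = 0.0144), by 0.47 ± 0.10 when AE1-329 was added to Aβ42 (limma adjusted p = 0.00833) and by 0.83 ± 0.10 with Aβ42 on AE1-329 (1.78-fold, limma adjusted p = 3.70e-05). Its combined arrays, 9.89, 9.77 and 9.80, lay above all others, which ran from 8.68 to 9.40. The Pfkl interaction was 0.46 ± 0.14 (limma adjusted p = 0.161), and 0.61 ± 0.07 without vehicle replicate 1 (limma adjusted p = 0.00128). The rise with Aβ42 alone was 0.22 ± 0.06 without that array (limma adjusted p = 0.0106) and lost its call without Aβ42 replicate 2 (0.0539).

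Pfkm, the muscle-type subunit, fell by 0.37 with Aβ42 in either background (SE 0.11, limma adjusted p = 0.0282 and 0.0343), calls that were lost under 5 and 6 of the 18 alternatives (adjusted p up to 0.138 and 0.129). Without vehicle replicate 1 the Pfkm fall with Aβ42 alone was 0.50 (SE 0.10, limma adjusted p = 0.00237). On AE1-329 the same 0.37 then had a limma adjusted p of 0.00877. Pfkp, the platelet-type subunit, went the opposite way to Pfkl when AE1-329 was added to Aβ42. Pfkp rose by 0.20 ± 0.05 with Aβ42 alone (limma adjusted p = 0.0168), fell by 0.25 with AE1-329 alone (SE 0.05, limma adjusted p = 0.00979) and fell by 0.39 when AE1-329 was added to Aβ42 (SE 0.05, limma adjusted p = 0.000445). The combined group, at 8.70 ± 0.03 (SD, n = 3), lay near the AE1-329 group at 8.64 ± 0.08 and below the vehicle group at 8.89 ± 0.04. The first of these calls was lost without Aβ42 replicate 3 (0.0725) and the second without AE1-329 replicate 1 (0.0517).

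The Pfkfb genes code for the bifunctional enzymes that make and break fructose 2,6-bisphosphate, the strongest activator of phosphofructokinase 1. Pfkfb3 codes for the isoform whose kinase activity most exceeds its phosphatase activity. Pfkfb3 read 9.93, 9.86 and 9.97 with vehicle, 9.22, 9.26 and 9.27 with Aβ42 alone, 9.07, 8.88 and 9.09 with AE1-329 alone, and 10.23, 10.17 and 10.28 with both. Each agent alone was followed by lower values than vehicle and the combination by higher ones, with no overlap between any of the 4 groups. Pfkfb3 fell by 0.66 with Aβ42 alone (SE 0.06, limma adjusted p = 3.01e-06) and by 0.90 with AE1-329 alone (SE 0.06, limma adjusted p = 1.18e-06). It rose by 0.97 ± 0.06 when AE1-329 was added to Aβ42 (1.96-fold, limma adjusted p = 6.83e-07) and by 1.21 ± 0.06 when Aβ42 was added to AE1-329 (2.31-fold, limma adjusted p = 9.80e-09). It was the only member with opposite calls for AE1-329 in the 2 backgrounds. The interaction was 1.87 ± 0.09 (limma adjusted p = 6.17e-07), the largest among the members, and 1.87 ± 0.09 without vehicle replicate 1. Within litters the direction held in 3 of 3 for each of the 4 comparisons.

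The sister genes of Pfkfb3 did not share its pattern. Pfkfb2, known as the heart isoform, followed Aβ42 alone, with a fall of 0.46 on vehicle and of 0.47 on AE1-329 (SE 0.06, limma adjusted p = 3.81e-05 and 3.41e-05), and its interaction was -0.01 ± 0.08 (limma adjusted p = 0.992). Pfkfb4, a hypoxia-inducible isoform, rose by 0.38 ± 0.09 with AE1-329 alone (limma adjusted p = 0.0179). That rise was 0.25 without vehicle replicate 1 (limma adjusted p = 0.0119) and missed the threshold without AE1-329 replicate 3 (0.0783).

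**Figure D4:**
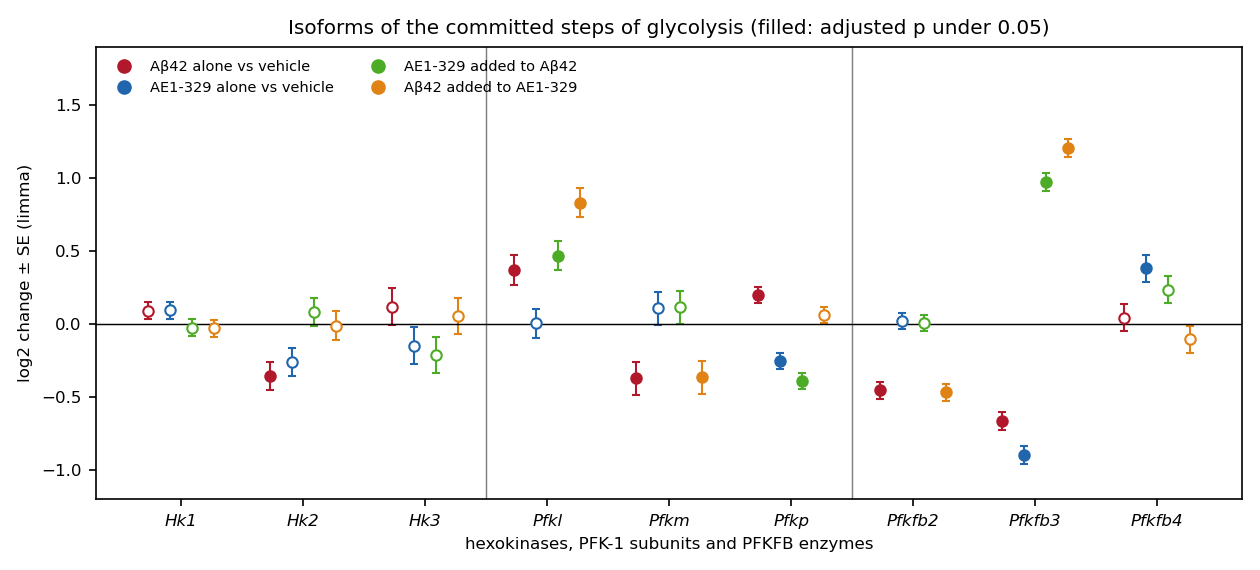
Log2 change ± SE (vertical axis) of the hexokinase, PFK-1 and PFKFB genes (horizontal axis) in the 4 comparisons between groups (colours); filled circles passed limma at an adjusted p under 0.05. Pfkfb3 lies below 0 for each agent alone and near 1 for each agent added to the other, and no other gene shown has that arrangement.

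From aldolase to pyruvate kinase the enzymes carry the sugar fragments to pyruvate, and here calls were rare. Of 7 genes measured (Aldoa, Aldoc, Tpi1, Pgk1, Pgam1, Eno2 and Pkm) only Eno2 had a call. Eno2, the gamma enolase usual in neurons, rose by 0.83 ± 0.10 with Aβ42 alone (1.77-fold, limma adjusted p = 2.39e-05) and by 0.68 ± 0.10 on AE1-329 (1.60-fold, limma adjusted p = 0.000167). The 6 arrays with Aβ42 read 8.60 to 8.80 and the 6 without it 7.62 to 8.20. Summed levels of the 10 neuron markers are given above for Slc2a3. Of these markers 0 were called higher or lower with Aβ42 alone by limma (unadjusted p under 0.05: 0). Over all genes 10.7% rose and 14.8% fell in that comparison, and the markers' part in the Eno2 result was not tested. Eno1, the enolase of most other tissues, is among the 4 genes not analysed here.

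Pgk1, phosphoglycerate kinase, came nearest to a call among the other 6 genes. It changed by 0.33 ± 0.11 with Aβ42 alone (limma adjusted p = 0.0531; 0.0254 with the litter as a block) and by 0.15 ± 0.06 without vehicle replicate 1 (0.0937). Tpi1, triosephosphate isomerase, changed by 0.21 when AE1-329 was added to Aβ42 (SE 0.07, limma adjusted p = 0.0890; 0.0492 with the block, 0.00597 without vehicle replicate 1). Pkm changed by 0.18 in that comparison (limma adjusted p = 0.568), and with vehicle replicate 1 left out the same 0.18 had a limma adjusted p of 0.0106. For Tpi1 and Pkm a change of the same size thus passed or missed the threshold according to whether vehicle replicate 1 entered the fit. Aldoc also marks astrocytes. The summed level of 10 astrocyte markers was 10.18 to 10.41 with vehicle and 10.34 to 10.49 with Aβ42, and Aldoc passed no test.

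Lactate dehydrogenase and the pyruvate dehydrogenase kinases decide whether pyruvate leaves as lactate or enters mitochondria. Ldha, the subunit that favours lactate, had no call, with -0.01 ± 0.07 for Aβ42 alone (limma adjusted p = 0.947). When AE1-329 was added to Aβ42, Ldha changed by 0.19 ± 0.07 (limma adjusted p = 0.120), which passed without vehicle replicate 1 (0.0108). Ldhb, the subunit of oxidative tissues, fell by 0.58 with Aβ42 alone and by 0.59 on AE1-329 (SE 0.08, limma adjusted p = 9.76e-05 and 0.000105). The 6 Ldhb arrays with Aβ42 read 9.59 to 9.88 and the 6 without it 10.10 to 10.39. Pdk3 moved in opposite directions with each agent alone. It fell by 0.34 with Aβ42 alone (SE 0.08, limma adjusted p = 0.00409), rose by 0.37 ± 0.08 with AE1-329 alone (limma adjusted p = 0.00758) and read 9.30 ± 0.05 (SD, n = 3) with both, near the 9.39 ± 0.07 of vehicle. When AE1-329 was added to Aβ42, Pdk3 changed by 0.25 ± 0.08 (limma adjusted p = 0.0513), which passed with the litter as a block (0.0176) and without vehicle replicate 1 (0.0411). Pdk1, the classic HIF-1 target of this family, fell by 0.28 with Aβ42 alone (SE 0.09, limma adjusted p = 0.0371), a call lost under 7 of the 18 alternatives (adjusted p up to 0.169).

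The 2 secreted products of the hypoxia response split between the agents. Adm, which codes for the vasodilator peptide adrenomedullin, read 6.45, 6.53 and 6.29 with vehicle, 8.01, 8.0 and 8.14 with Aβ42 alone, 6.69, 6.58 and 6.43 with AE1-329 alone, and 8.10, 7.93 and 8.0 with both. The 6 arrays with Aβ42 lay well above the 6 without it. Adm rose by 1.63 ± 0.08 with Aβ42 alone (3.09-fold, limma adjusted p = 6.67e-09), the largest rise of any member, and by 1.44 ± 0.08 on AE1-329 (2.71-fold, limma adjusted p = 2.30e-08). AE1-329 changed it by 0.15 ± 0.08 alone and by -0.04 ± 0.08 on Aβ42, with limma adjusted p of 0.352 and 0.856.

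Vegfa, the main angiogenic growth factor, followed AE1-329 instead. It read 7.93, 7.68 and 7.51 with vehicle, 7.98, 7.88 and 7.67 with Aβ42 alone, 8.92, 8.73 and 8.84 with AE1-329 alone, and 8.75, 8.71 and 8.77 with both. All 6 arrays with AE1-329 lay above all 6 without it, and the vehicle and Aβ42 arrays overlapped. Vegfa rose by 1.12 ± 0.10 with AE1-329 alone (2.18-fold, limma adjusted p = 1.27e-05) and by 0.90 ± 0.10 on Aβ42 (1.87-fold, limma adjusted p = 7.32e-05), and the interaction was -0.22 ± 0.14 (limma adjusted p = 0.738). With Aβ42 alone Vegfa changed by 0.13 ± 0.10 (limma adjusted p = 0.414). Vegfa and Hif1a therefore did not move in parallel, since Hif1a had no call with AE1-329 alone. Of 10 endothelial and mural markers, 2 rose and 1 fell with AE1-329 alone, where 4.71% of all genes rose and 5.45% fell. The summed level of these markers was 10.35 to 10.53 with vehicle and 10.51 to 10.67 with AE1-329. Their part in the Vegfa result was not tested.

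Bnip3 and Bnip3l code for mitochondrial outer membrane receptors that hand mitochondria to autophagy. Bnip3 read 9.90, 9.43 and 9.46 with vehicle, 9.08, 9.14 and 9.21 with Aβ42 alone, 9.59, 9.56 and 9.61 with AE1-329 alone, and 10.14, 9.99 and 9.94 with both. The Aβ42 arrays were the lowest and the combined arrays the highest, without overlap. Bnip3 fell by 0.45 with Aβ42 alone (SE 0.10, limma adjusted p = 0.00526), or by 0.30 without vehicle replicate 1, its highest vehicle array (limma adjusted p = 0.00365). It rose by 0.88 ± 0.10 when AE1-329 was added to Aβ42 (1.84-fold, limma adjusted p = 0.000110), and the interaction was 0.89 ± 0.15 (limma adjusted p = 0.00630), or 0.74 ± 0.08 without that array. A second, dimmer Bnip3 probe set gave an interaction of 0.68 ± 0.15, with a limma p of 0.0851 adjusted over all probe sets, and its fall with Aβ42 alone had 0.0965. Its rise with AE1-329 on Aβ42 passed at 0.66 ± 0.11 (0.00351). The probe set used was chosen by brightness, and which of the 2 better reads Bnip3 was not tested.

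Bnip3l, also called Nix, followed Aβ42, with a fall of 0.33 on vehicle (SE 0.06, limma adjusted p = 0.000985) and of 0.21 on AE1-329 (SE 0.06, limma adjusted p = 0.0235). The second of these calls was lost under 5 of the 18 alternatives (adjusted p up to 0.0819). Its interaction was 0.12 ± 0.09 (limma adjusted p = 0.769), so no difference like that of Bnip3 was detected.

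Among the enzymes of collagen hydroxylation and protein oxidation in the endoplasmic reticulum, P4ha2 rose by 0.33 ± 0.08 with Aβ42 alone and by 0.38 ± 0.08 on AE1-329 (limma adjusted p = 0.00750 and 0.00384), while its partner gene P4ha1 had no call. Ero1a, the oxidase that feeds disulphide bonds to secreted proteins, rose by 0.43 ± 0.06 with Aβ42 alone (limma adjusted p = 0.000137) and by 0.79 ± 0.06 on AE1-329 (1.73-fold, limma adjusted p = 5.14e-07). Adding AE1-329 to Aβ42 raised Ero1a by 0.22 ± 0.06 (limma adjusted p = 0.0339), a call lost under 5 of the 18 alternatives (adjusted p up to 0.140). Its interaction of 0.36 ± 0.09 lay just outside the threshold (limma adjusted p = 0.0526) and passed with the litter as a block (0.0407). Hif1a, Pfkl and Ero1a were the 3 members that rose with Aβ42 alone and rose again when AE1-329 was added.

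The remaining hypoxia targets hardly moved. Ndrg1, a stress gene that also marks oligodendrocytes, had no call. Ddit4, the inhibitor of the growth kinase mTORC1, had no call without a block, with 0.25 ± 0.08 for AE1-329 alone (limma adjusted p = 0.0616), and passed with the litter as a block for AE1-329 alone (0.0176) and for Aβ42 alone (0.0347). Ankrd37, a small HIF-1 target gene, rose by 0.27 ± 0.09 with Aβ42 on AE1-329 (limma adjusted p = 0.0376), a call lost under 5 of its 17 alternatives (adjusted p up to 0.175).

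Other genes of HIF control were read in the same fits, and the counts of this and the following lists stand beside the shares of all genes given above for each comparison. The lists were not matched for level. Of 11 measured regulators, 4 rose and 1 fell with Aβ42 alone, and leaving out vehicle replicate 1 gave the same counts. Over all genes 10.7% rose and 14.8% fell there, and 19.6% and 27.8% among genes above the median level. The regulators that rose with Aβ42 alone were the following. Cited2, which competes with HIF-1 for its coactivator, rose by 1.21 ± 0.09 (limma adjusted p = 5.59e-07). Siah2, a ligase that targets Egln enzymes for degradation, rose by 0.84 ± 0.07 (limma adjusted p = 7.54e-07). Vhl, the ligase component that removes hydroxylated HIF-1 alpha, rose by 0.60 ± 0.06, and Egln2 by 0.50 ± 0.08 (limma adjusted p = 9.68e-06 and 0.000353). When AE1-329 was added to Aβ42, 0 regulators rose and 2 fell by limma (unadjusted p under 0.05: 1 higher, 3 lower), where 5.99% of all genes rose and 5.04% fell. Cited2 fell by 0.80 (SE 0.09, limma adjusted p = 0.000108), the opposite side to Hif1a, and its interaction was -0.71 ± 0.13 (limma adjusted p = 0.0146). Siah2 fell by 0.27 (SE 0.07, limma adjusted p = 0.0187). With AE1-329 alone the HIF-1 partner gene Arnt was the only regulator called, at 0.18 ± 0.05 (limma adjusted p = 0.0397).

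Among 35 other measured hypoxia targets, 6 rose and 11 fell with Aβ42 alone, and 6 rose and 5 fell with AE1-329 alone. When AE1-329 was added to Aβ42, 7 rose and 0 fell by limma (unadjusted p under 0.05: 9 higher, 2 lower). Leaving out vehicle replicate 1 gave 6 and 12, 3 and 4, and 8 and 1 of the targets. For these comparisons in turn, the full fit called 10.7% and 14.8%, 4.71% and 5.45%, and 5.99% and 5.04% of all genes. Genes above the median level, tested alone, had 19.6% and 27.8%, 10.8% and 12.2%, and 13.4% and 10.3%. Mxi1, a repressor in the MYC network, fell by 1.09 with Aβ42 alone (SE 0.06, limma adjusted p = 1.44e-08) and rose by 1.97 ± 0.06 when AE1-329 was added (limma adjusted p = 1.65e-09). The chemokine receptor gene Cxcr4 fell by 2.50 with Aβ42 alone (SE 0.05, limma adjusted p = 3.60e-12) and rose by 0.80 ± 0.05 when AE1-329 was added (limma adjusted p = 7.25e-07). Pygl, a glycogen phosphorylase, and Kdm3a, a histone demethylase, rose by 0.49 ± 0.07 and 0.58 ± 0.09 in that comparison (limma adjusted p = 0.000457 and 0.000722).

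Among 15 other sugar and monocarboxylate carriers, Slc2a6, a carrier of the glucose carrier family, rose by 2.36 ± 0.09 with Aβ42 alone (limma adjusted p = 7.46e-10) and was the only one to rise, while 2 fell (4 without vehicle replicate 1). Slc16a1, the lactate carrier MCT1, fell by 0.39 with Aβ42 alone (SE 0.08, limma adjusted p = 0.00223) and by 0.42 with AE1-329 alone (SE 0.08, limma adjusted p = 0.00446). It thus lay on the other side from Slc16a3, which rose with AE1-329. Among 19 other glycolytic isoforms and gluconeogenic genes, 0 rose and 4 fell with Aβ42 alone by limma (unadjusted p under 0.05: 2 higher, 6 lower), and 6 fell without vehicle replicate 1. Galm, which interconverts the anomers of hexoses, fell by 0.32 (SE 0.07, limma adjusted p = 0.00329). With Aβ42 alone 10.7% of all genes rose and 14.8% fell, and 19.6% and 27.8% of genes above the median level.

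Around the mitochondrial entry of pyruvate, 1 of 11 genes rose and 3 fell with Aβ42 alone, with or without vehicle replicate 1. Pdk2, a pyruvate dehydrogenase kinase like the members Pdk1 and Pdk3, fell by 1.23 with Aβ42 alone (SE 0.09, limma adjusted p = 4.08e-07) and rose by 0.92 ± 0.09 with AE1-329 alone (limma adjusted p = 3.53e-05), the same directions as Pdk3. The phosphatase gene Pdp1 fell by 0.78 and 0.39 with each agent alone (SE 0.06, limma adjusted p = 6.48e-07 and 0.00126) and had a positive interaction of 0.62 ± 0.09 (limma adjusted p = 0.00242). In the tricarboxylic acid cycle 0 of 18 genes rose and 7 fell with Aβ42 alone by limma (unadjusted p under 0.05: 1 higher, 8 lower). The counts were the same without vehicle replicate 1. In that comparison 10.7% of all genes rose and 14.8% fell. Among genes above the median level, tested alone, 19.6% rose and 27.8% fell, and the lists were not matched for level. Idh1, the cytosolic isocitrate dehydrogenase counted with this list, fell by 0.86 (SE 0.06, limma adjusted p = 1.99e-07). For AE1-329 alone 0 of these 18 passed in either direction (limma; unadjusted p under 0.05: 0 higher, 3 lower), and 1 fell without vehicle replicate 1. In the pentose phosphate pathway 1 of 8 genes rose and 3 fell with Aβ42 alone (1 and 4 without vehicle replicate 1), and the gene that rose was Pgd, 6-phosphogluconate dehydrogenase, by 0.56 ± 0.10 (limma adjusted p = 0.000661).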

How the data were processed

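The deposited values are log2 expression values, 1 for each of 35556 probe sets on each of 12 arrays. Per the submitters' processing notes RMA and Partek 6.5 were used, with no role stated, and the log2 scale was read from the deposited values (2.79 to 13.95). Any filter or litter correction is not given in the sources used here. Without scanner files, signal over background is unknown.

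Of the probe sets 21789 carried 1 symbol, 1621 several and 12146 none. Gene IDs of 21698 were matched in RefSeq (GRCm38.p6, for names). The highest-mean probe set was kept for the 999 genes that had several, giving 19938 genes. The 12 arrays were fitted jointly, 1 mean per group, by limma 3.58.1 under R 4.3.3 (lmFit, eBayes, 8 residual and 4.54 prior degrees of freedom, two-sided), with Benjamini-Hochberg adjustment within each of 5 comparisons and a threshold of 0.05. The fit was tested on simulated data. No array was imputed, and no value column lacked a sample.

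The series' design text gives replicates as litters, so same-numbered arrays count as paired. Deviations from group means of same-numbered arrays correlated at a mean r of 0.326 over 18 pairs (0.0044 to 0.538, 17 above 0.1), across genes, which are not independent. The main fit had no block, and the replicate block (6 residual degrees of freedom) was an alternative. The others were averaging a gene's probe sets, only genes above the median level, quantile normalization again, a robust prior with a mean-variance trend, all probe sets tested, and leaving out each array, 18 in all. Counts of the other lists and of calls in several comparisons without vehicle replicate 1 were added after seeing the data.

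Every array value is printed for members called with a change of at least 1 log2 unit or passing the interaction, and for Slc16a3, added after its values were seen. From each other list at most 4 called genes per comparison with the smallest p were eligible for naming. The members and lists were chosen with earlier results of these data known.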

Additional observations from a re-analysis of the deposited data

Results flagged for a closer look

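For 4 members the response to AE1-329 differed with and without Aβ42 by limma's interaction test. The interaction was 0.62 ± 0.09 for Hif1a (limma adjusted p = 0.00202), 0.37 ± 0.07 for Egln1 (limma adjusted p = 0.0117), 1.87 ± 0.09 for Pfkfb3 (limma adjusted p = 6.17e-07) and 0.89 ± 0.15 for Bnip3 (limma adjusted p = 0.00630). The dimmer probe set of Bnip3 missed the threshold, at 0.68 ± 0.15 (limma p adjusted over all probe sets = 0.0851). AE1-329 was followed by a higher value in 3 of 3 litters for each of the 4 genes when Aβ42 was present. Without Aβ42 it was followed by a higher value in 0 of 3 litters for Pfkfb3 and Egln1 and in 2 of 3 for Hif1a and Bnip3. The 4 genes were picked by their interaction on these same arrays, so the litter counts describe them and add no separate support. For Egln1 the rise on Aβ42 was not called (limma adjusted p = 0.0513).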

How the results depend on the processing

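No called change of a member turned its direction under the alternatives run, 18 for each member but Adm, P4ha2 and Ankrd37, which lay below the median level and had 17. With the replicate block the counts of called members were 21 with Aβ42 alone, 9 with AE1-329 alone, 11 for AE1-329 added to Aβ42, 18 for Aβ42 added to AE1-329 and 6 for the interaction, beside 19, 7, 9, 17 and 4 without it. The share of all genes called moved as well, from 25.6%, 10.2%, 11%, 22% and 1.95% to 28.6%, 12.6%, 13.5%, 25.1% and 3.40%. The block ended no member's call. The pairing of litters by the block added calls for Egln3, Tpi1, Pgk1, Pdk1, Pdk3, Ero1a and Ddit4.

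Leaving out each array in turn gave 16 to 20 called members with Aβ42 alone, 6 to 11 with AE1-329 alone, 8 to 17 for AE1-329 added to Aβ42, 13 to 20 for Aβ42 added to AE1-329 and 4 to 8 for the interaction. Over all genes the same fits called 21.1% to 28.6%, 7.07% to 11.8%, 7.48% to 15.5%, 17.6% to 27.1% and 1.23% to 2.79%, highest in each comparison without vehicle replicate 1. The highest counts for AE1-329 alone (11), AE1-329 added to Aβ42 (17) and the interaction (8) all came from that fit too. Where an array is left out, its group of 2 shares the spread of the others.

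Calls of single genes lost without 1 array include the following. For Slc2a3 with Aβ42 alone, the limma adjusted p was 0.0902 and 0.0932 without vehicle replicates 2 and 3 and 0.0735 and 0.0760 without Aβ42 replicates 1 and 3. On AE1-329 it was 0.0784 without AE1-329 replicate 3 and 0.0587 and 0.0529 without combined replicates 1 and 3. For Pfkm with Aβ42 alone it was 0.0901 and 0.107 without vehicle replicates 2 and 3 and 0.138 without Aβ42 replicate 1. On AE1-329, Pfkm had 0.0833 and 0.129 without AE1-329 replicates 2 and 3 and 0.124 and 0.102 without combined replicates 1 and 3. For Pdk1 it was 0.144 without vehicle replicate 3, 0.169 and 0.0675 without Aβ42 replicates 1 and 2, 0.0510 without AE1-329 replicate 1 and 0.0519 without combined replicate 1. Bnip3l on AE1-329 had 0.0819, 0.0610 and 0.0509 without AE1-329 replicates 1, 2 and 3 and 0.0762 and 0.0761 without combined replicates 2 and 3. Ero1a had 0.140 and 0.104 without Aβ42 replicates 2 and 3 and 0.140 and 0.0968 without combined replicates 1 and 2. Ankrd37 had 0.175 without AE1-329 replicate 3 and 0.0772, 0.143 and 0.0555 without combined replicates 1, 2 and 3. The causes were not tested. The number of arrays and the unknown signal over background limit precision, and small changes of members in the vehicle comparisons could not be told from the spread of the vehicle arrays.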
